A study of Mus musculus with 4 samples.

Results

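Chromatin accessibility was examined at 6 genes of the haematopoietic growth factor system, namely the cytokine gene Csf1 and the receptor genes Csf1r, Csf2rb, Csf3r, Flt3 and Kit. ATAC-seq, in which the Tn5 transposase cuts and tags open DNA, gave peaks in 4 libraries, which were joined into 60710 regions wherever they shared 1 bp or more, and a region was taken as one of these genes when the gene named for its highest peak, the gene with the nearest transcription start site (TSS), was one of the 6. This gave 38 regions, belonging to 6 of the 16244 genes named for any region. All libraries came from wild-type bone marrow-derived macrophages (BMDMs) of mice on a C57BL/6 background aged 8 to 12 weeks, whose marrow cells were grown for 6 days in L929 cell supernatant, which supplies macrophage colony-stimulating factor (M-CSF). Control BMDMs (n = 2 libraries) received no IL-4, and the other BMDMs (n = 2 libraries) received 20 ng/ml of IL-4 and were collected after 1 h. Both groups were therefore grown with the ligand of one of the receptors described here, and no library without M-CSF was measured. Whether the replicates came from separate mice is not given in the sources used here, so that errors describe spread between these libraries alone. Each error comes from a fit that shares this spread among regions of similar height. It is therefore not the spread of its own region, and regions with close replicates can carry a large error.

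These genes encode the machinery by which marrow progenitors survive, divide and become myeloid cells. CSF1R, FLT3 and KIT are receptor tyrosine kinases of a single structural class that also holds the PDGF receptors. M-CSF, the product of Csf1, binds CSF1R and keeps macrophages alive, whereas KIT and FLT3 are best known on stem cells and progenitors, KIT also on mast cells and FLT3 on dendritic cells and their precursors. CSF3R, the receptor of G-CSF, is known from neutrophils, and CSF2RB is the beta chain shared by the receptors of GM-CSF, IL-3 and IL-5. IL-4 acts through STAT6, which binds a palindrome with 4 bases between its arms.

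Of the 38 regions, 9 had a peak in all 4 libraries, 2 had a peak in both IL-4 libraries and in no control library, and 3 had the opposite arrangement. The genomic sequences below (mm10, printed 5′ to 3′ on the strand of the gene) come from 4 of the 38 regions. They are the Csf3r and Kit regions seen with IL-4 alone and 2 of the 3 regions with lower normalised heights in both IL-4 libraries. No sequence of the 3 control-only regions is printed. Except for Kit, each printed sequence is a window of 300 bp centred on the highest peak. For Kit it is the stretch of the peak that precedes the TSS. Capitals mark matches to any of 6 motifs searched on both strands, which were STAT6 (TTCNNNNGAA), other STAT proteins (TTCNNNGAA), PU.1 (GAGGAAG), AP-1 (TGACTCA), C/EBP (TTGCNNAAT) and RUNX (TGTGGTT).
Csf3r −20.4 kb, chr4:126004071-126004370, plus strand: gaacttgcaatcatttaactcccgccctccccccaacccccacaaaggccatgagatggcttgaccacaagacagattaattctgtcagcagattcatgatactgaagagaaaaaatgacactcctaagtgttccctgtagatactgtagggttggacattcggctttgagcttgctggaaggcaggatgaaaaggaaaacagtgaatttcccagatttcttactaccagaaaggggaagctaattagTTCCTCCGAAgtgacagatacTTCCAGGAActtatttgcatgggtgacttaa
Kit promoter, chr5:75574898-75574986, plus strand: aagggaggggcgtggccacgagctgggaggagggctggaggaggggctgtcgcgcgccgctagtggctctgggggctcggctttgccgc
Flt3 +20.5 kb, chr5:147379852-147380151, minus strand: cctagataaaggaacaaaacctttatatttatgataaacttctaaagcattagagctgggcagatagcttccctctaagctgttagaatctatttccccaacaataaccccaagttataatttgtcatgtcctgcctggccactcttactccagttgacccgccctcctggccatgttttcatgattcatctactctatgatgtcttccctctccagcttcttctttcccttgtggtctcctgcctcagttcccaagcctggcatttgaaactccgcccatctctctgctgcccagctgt
Csf2rb −5.0 kb, chr15:78320875-78321174, plus strand: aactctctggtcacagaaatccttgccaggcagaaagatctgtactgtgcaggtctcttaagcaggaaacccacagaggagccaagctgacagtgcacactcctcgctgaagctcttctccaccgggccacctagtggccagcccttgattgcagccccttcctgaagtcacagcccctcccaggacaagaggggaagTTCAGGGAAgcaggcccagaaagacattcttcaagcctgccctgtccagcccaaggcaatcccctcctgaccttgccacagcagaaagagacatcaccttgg

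The Csf3r window held a match to the STAT6 motif, TTCCTCCGAA at position 249 of the window (126004319 to 126004328), and a match to the 3-base STAT spacing, TTCCAGGAA at position 270 (126004340 to 126004348). Of the 2 IL-4-only regions of these genes, it alone held a STAT6 match. A STAT6 match was present in 2 of the 38 windows (5.3%), compared to 9.0% of the windows of all 60710 regions, 34.3% of those of all IL-4-only regions and 4.7% of those of all control-only regions. The other of the 2 was the Csf1r −4.0 kb window, whose peak was present in both control libraries. The Csf2rb −5.0 kb window held the 3-base STAT spacing, TTCAGGGAA. This spacing occurred in 8 of the 38 windows (21.1%) and in 8.9% of all windows, and the 8 were 4 of the 10 Kit windows, all 3 Csf2rb windows and the Csf3r −20.4 kb window. The Flt3 +20.5 kb window and the Kit stretch held no match to any of the 6 motifs. PU.1 was matched in 8 windows (21.1%, all regions 25.4%), AP-1 in 10 (26.3%, all regions 19%), RUNX in 4 (10.5%, all regions 9.5%) and C/EBP in 0 (all regions 3.7%). These are letter matches in fixed windows, and binding was not measured.

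The height of a peak, the deposited score read as −log10 of its q-value (a unit that no label states), was used as the measure of accessibility. Over all peaks its median was 8.04 and 7.46 in control and 7.69 and 6.41 in IL-4 libraries, in the order of the replicate numbers. Sequencing depth is unknown, because the files hold no read counts, and both height and detection of a peak grow with depth. A lower height in a mixed population of cells can also reflect fewer cells with an open region or less opening per cell, which cannot be told apart here.

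Fewer regions of the 6 genes than of all regions were seen in every library, and more were seen in 3. Of the 38, 9 (23.7%) had a peak in all 4 libraries, compared to 41.9% of all regions. A further 12 regions (31.6%) had a peak in 3 libraries, 8 (21.1%) in 2 and 9 (23.7%) in a single library, with 13.3%, 15.2% and 29.6% for all regions. The 9 regions seen in every library had a median of their mean heights of 10.29, compared to 10.80 for all 25442 such regions. The libraries held 28, 25, 26 and 18 peaks in these regions (control 1, control 2, IL-4 1 and IL-4 2). IL-4 2, the library with the lowest median height, was the one without a peak in 8 of the 12 regions seen in 3 libraries (66.7%), whereas it was the missing library in 43.6% of all 8071 such regions. Control 1 was missing in 0 of the 12. The peaks of the 9 regions seen once were 1.35 to 5.34 high, with a median of 3.58. By annotation 19 regions were intergenic, 13 intronic, 4 at a promoter, 1 in a 5′ UTR and 1 at a transcript end. Only 6 of the 38 (15.8%) lay within 1 kb of a TSS, compared to 24.8% of all regions, and the highest peak of 10 (26.3%, all regions 15.9%) was annotated to a repeat element.

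**Figure D1:**
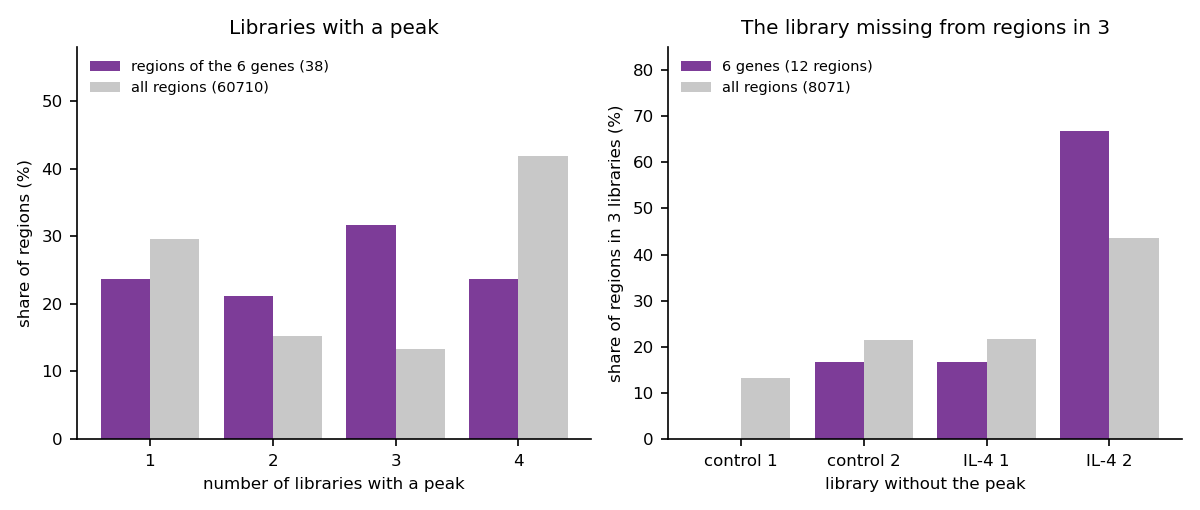
Detection of the 38 regions of the 6 genes (purple) beside all 60710 regions (grey). The left bars give the share of regions (%) by the number of libraries with a peak, and the right bars give, for regions seen in 3 libraries, the share (%) in which each library was the one without a peak. The purple bars are lower at 4 libraries (23.7% against 41.9%) and highest for IL-4 2 as the missing library (66.7%).

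The ligand gene Csf1 (chromosome 3, minus strand) had 6 regions, of which 1 had a peak in every library. This region, chr3:107760091-107760675, covers the TSS and the 5′ UTR of exon 1. Its heights were 6.74 and 5.96 in control and 4.21 and 4.76 in IL-4 libraries. Both deposited IL-4 heights lay below both control heights, but the groups overlapped after quantile normalisation. The normalised log2 difference, IL-4 minus control, was −0.24 ± 0.54 (SE, n = 2 per group, limma adjusted p = 0.945). None of the 5 other Csf1 regions had a peak in every library. Upstream of the gene, the −55.8 kb region had heights of 11.09, 4.93 and 2.92 and the −12.6 kb region of 7.44, 5.49 and 2.45 (control 1, control 2 and IL-4 1), and IL-4 2 had a peak in neither. The order of the heights was thus the same at both. In a limma fit without IL-4 2, which leaves IL-4 1 as the lone IL-4 sample, the difference was −1.32 ± 0.65 (SE, adjusted p = 0.811) at −55.8 kb and −1.31 ± 0.61 (SE, unadjusted p = 0.0499, adjusted p = 0.811) at −12.6 kb, over 28960 regions. The −21.0 kb region lacked control 2 and had heights of 6.16, 6.75 and 4.97 in the other libraries. The −17.5 kb and +0.5 kb regions were each seen once, at heights of 3.67 in IL-4 2 and 3.43 in control 1.

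The highest peak of all 38 regions was found in Csf1r, which encodes the M-CSF receptor. Its 10 regions lie between −14.7 and +26.5 kb from the TSS on chromosome 18, and the last of them, at the transcript end, reaches into the neighbouring gene Hmgxb3. The +3.1 kb region, chr18:61108381-61109011 in intron 2 of 21, had heights of 28.86 and 20.27 in control and 24.32 and 15.60 in IL-4 libraries. Intron 2 is known to hold FIRE, the fms-intronic regulatory element that drives the gene in macrophages. The peak ranked above 87.9% to 96.3% of the peaks of its own library in all 4 libraries. Control and IL-4 heights interleaved, and the difference was −0.14 ± 0.28 on the log2 scale (SE, n = 2 per group, adjusted p = 0.937), with a 95% interval from −0.69 to 0.41. A 2-fold difference in normalised height, which is 1 on the log2 scale, lies outside that interval in either direction.

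The other 2 Csf1r regions with peaks in all libraries also overlapped between the groups. The +15.1 kb region in intron 11 had heights of 16.53 and 12.20 in control and 18.89 and 10.64 in IL-4 libraries (0.22 ± 0.36, SE, n = 2 per group, adjusted p = 0.926). The intergenic −6.4 kb region had heights of 9.23 and 11.33 in control and 9.54 and 12.18 in IL-4 libraries (0.32 ± 0.44, SE, n = 2 per group, adjusted p = 0.905). It was the only one of the 9 regions in which IL-4 2 had the highest deposited height. The +22.1 kb region in intron 15, in an L3 LINE repeat, had a peak in the control libraries alone, at heights of 6.35 and 11.20. Its mean height was above that of 95.6% of all 2630 control-only regions, and its control 2 peak was the only one of the 10 peaks in one-group regions of these genes above the pooled median height of 7.37. The 6 further Csf1r regions were seen in 3 libraries each, at heights of 2.38 to 9.36, and IL-4 2 was without a peak in 4 of them (−14.7, −14.4, −4.0 and +26.5 kb), control 2 in the +2.2 kb region and IL-4 1 in the +14.5 kb region. No region covered the Csf1r TSS. The nearest ones lay at −4.0 and +2.2 kb.

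**Figure D2:**
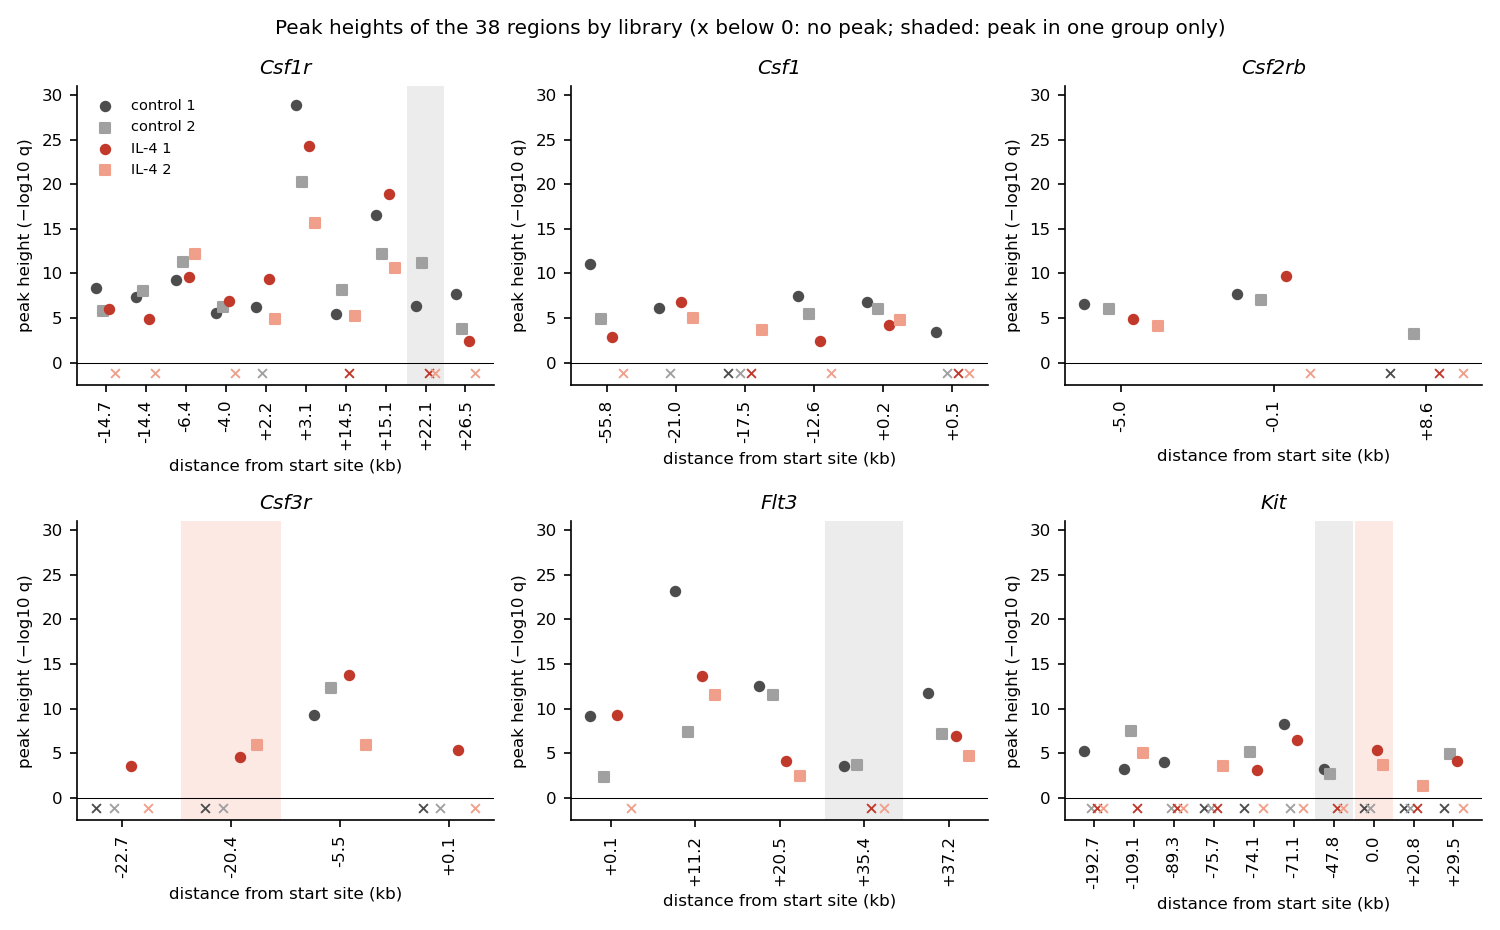
Peak heights (−log10 q, vertical axis) of the 38 regions in the 4 libraries, ordered within each gene by distance from the TSS (kb, horizontal axis). Grey symbols are control and red symbols IL-4 libraries, a cross below 0 marks a library without a peak, and shading marks regions with peaks in one group only. Csf1r holds the highest peak (28.86 at +3.1 kb), and no Kit region has a symbol from every library.

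Csf2rb, which encodes the shared beta chain, had 3 regions on chromosome 15. The promoter region, chr15:78325776-78326133, had heights of 7.64 and 7.0 in control libraries and 9.74 in IL-4 1, with no peak in IL-4 2. The library with the highest and the library without a peak were thus both IL-4 libraries. The −5.0 kb region, chr15:78320922-78321082, whose sequence is given above, had heights of 6.62 and 5.96 in control and 4.93 and 4.06 in IL-4 libraries. The groups did not overlap, yet the difference was −0.25 ± 0.54 (SE, n = 2 per group, adjusted p = 0.941). The +8.6 kb region in intron 1 was seen in control 2 alone (height 3.24). The neighbouring gene Csf2rb2 encodes a closely similar beta chain specific to IL-3, so that reads of the 2 genes could have been misplaced between them. Its promoter had heights of 12.07 and 8.99 in control and 6.19 and 3.43 in IL-4 libraries (−0.98 ± 0.52, SE, n = 2 per group, adjusted p = 0.632), and so the same direction as the −5.0 kb region of Csf2rb without passing the test.

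Csf3r, the G-CSF receptor gene on chromosome 4, had 4 regions. The −20.4 kb region, chr4:126003972-126004426, had no peak in the control libraries and heights of 4.61 and 5.96 in the IL-4 libraries. It is intergenic, 42.7 kb from the TSS of Mrps15, the closest other protein-coding gene. Its mean height lay above that of 61.5% of all 1534 IL-4-only regions. The −5.5 kb region, in a MIR SINE repeat, was the one Csf3r region with a peak in every library, at heights of 9.23 and 12.28 in control and 13.78 and 5.88 in IL-4 libraries. IL-4 1 was the highest and IL-4 2 the lowest of the 4, and the mean difference was 0.01 ± 0.46 (SE, n = 2 per group, adjusted p = 0.997), a sign that depended on the scaling. The promoter, at 68 bp after the TSS, had a peak in IL-4 1 alone (height 5.34), and so did the −22.7 kb region (3.58). No Csf3r region was control-only. For cell type markers, here and below, only peaks themselves annotated as promoter were counted. A peak at the same place with another annotation counted as none. By this count 5 of the 6 neutrophil markers examined (Elane, Mpo, Ly6g, Cxcr2 and S100a9) had no promoter peak in any library. That of S100a8 had heights of 6.63, 6.18, 6.62 and 2.49.

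Flt3, on the minus strand of chromosome 5, had 5 regions, 4 of them in introns. The +20.5 kb region, chr5:147379855-147380086 in intron 2 of 23, gave the largest difference of the 9 regions tested. Its heights were 12.48 and 11.53 in control and 4.11 and 2.49 in IL-4 libraries. In the control libraries the peak stood above 70.6% and 70.8% of the peaks of the library, and in the IL-4 libraries above 19% and 9.9%. The normalised log2 difference was −1.66 ± 0.53 (SE, n = 2 per group), with a 95% interval from −2.73 to −0.60, an unadjusted limma p of 0.00275 and an adjusted p of 0.318. The region therefore did not pass the threshold of 0.05 over all 25442 regions tested, where its p ranked at place 219. Its highest peak lies in an RLTR11A2 element, a long terminal repeat of an endogenous retrovirus, and reads from repeats can map to several places.

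The remaining Flt3 regions did not share that pattern as a whole. The +37.2 kb region in intron 9, chr5:147363047-147363378, had heights of 11.74 and 7.17 in control and 6.95 and 4.69 in IL-4 libraries. The IL-4 heights lay below the control heights by a small margin (−0.45 ± 0.51, SE, n = 2 per group, adjusted p = 0.877). In the same intron, the +35.4 kb region, in a B3 SINE repeat, had a peak in the control libraries alone, at 3.57 and 3.66. In contrast, the +11.2 kb region in intron 1 had heights of 23.17 and 7.42 in control and 13.65 and 11.53 in IL-4 libraries (0.14 ± 0.41, SE, n = 2 per group, adjusted p = 0.956). Both IL-4 values lay between the control values, whose spread was the widest among the 9 regions. Without control 2 the difference at this region was −0.61, and without control 1 it was 0.88. The promoter region, at +0.1 kb, had heights of 9.22 and 2.36 in control, 9.33 in IL-4 1 and none in IL-4 2. Among other dendritic cell markers, promoter peaks of Zbtb46 had heights of 3.52, 5.40 and 3.45 with none in IL-4 2. Xcr1 and Siglech had no promoter peak. Counted in the same way, Flt3 itself had a promoter peak in IL-4 1 alone (9.33), although its promoter region also held the control peaks of 9.22 and 2.36.

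**Figure D3:**
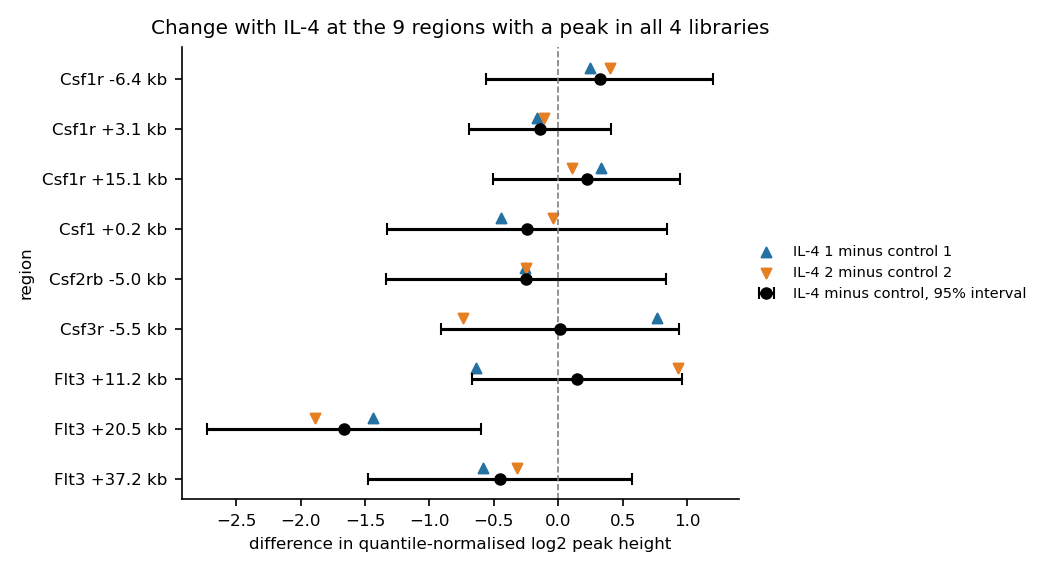
Difference in quantile-normalised log2 peak height, IL-4 minus control (horizontal axis), for the 9 regions detected in every library. Black points are limma estimates with 95% intervals, and triangles are the differences between libraries of the same replicate number. The interval of Flt3 +20.5 kb (−2.73 to −0.60) is the only one that leaves out 0 before adjustment, and the triangles of Csf3r −5.5 kb and Flt3 +11.2 kb lie on opposite sides of 0.

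Kit, the stem cell factor receptor gene on chromosome 5, had 10 regions and none with a peak in every library, so that no Kit region entered the fit of all 4 libraries. The promoter region, chr5:75574898-75575122, had no peak in the control libraries and heights of 5.34 and 3.64 in the IL-4 libraries. Its mean height exceeded that of 37.9% of all IL-4-only regions, and 74.2% of the bases of the stretch printed above are G or C. The −47.8 kb region, in an LTR repeat, had a peak in the control libraries alone at 3.17 and 2.66. The mean height of 2542 of all 2630 control-only regions was higher. Only the −109.1 kb region was seen in 3 libraries (3.17 and 7.46 in control, 5.05 in IL-4 2), and in the limma fit without IL-4 1 its difference was 0.44 ± 0.68 (SE, adjusted p = 0.898). The other 7 regions, from −192.7 to +29.5 kb, were seen in 1 or 2 libraries, at heights of 1.35 to 8.22. The 2 group-specific Kit regions thus had opposite arrangements.

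Other progenitor markers were examined beside Kit. Promoter peaks of Cd34, counted by annotation as above, were absent in control 1 and had heights of 9.82, 8.91 and 6.64 in the other libraries. Those of Gata2 had 5.73 in control 1 and 5.05 in IL-4 1 alone, and Hoxa9 had none. A promoter peak was thus found in at least 1 library for 3 of the 4 progenitor markers, and the summed heights over the list were 5.73 and 9.82 in control and 19.30 and 10.28 in IL-4 libraries. The Kit promoter, seen with IL-4 alone, is itself in this list. It added 5.34 and 3.64 to the IL-4 sums and nothing to the control sums. Heights of Cd34 and of Gata2, the other markers of the list with a promoter peak, overlapped between the groups. A peak with another annotation adds nothing to these sums, so that they also depend on annotation. None of the 4 mast cell markers (Mcpt4, Cma1, Fcer1a and Cpa3) had a promoter peak in any library, nor had the 4 T cell, 4 B cell and 4 fibroblast markers. Of 6 macrophage markers, Cd68, Mertk, Fcgr1 and Adgre1 (listed as Emr1) had a promoter peak in all libraries, Mrc1 in 3 and Itgam in none, with summed heights of 54.89 and 46.73 in control and 48.36 and 41.18 in IL-4 libraries. The part of progenitors, or of other cells in the cultures, in the Kit and Flt3 peaks was not tested.

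Across the 6 genes, 0 of the 9 regions in the fit of all 4 libraries passed the test in either direction (limma, adjusted p under 0.05), with 1 at an unadjusted p under 0.05. Of all 25442 regions with peaks in every library, 4 were called higher (0.0157%) and 2 lower (0.00786%) with IL-4, and 2106 (8.28%) had an unadjusted p under 0.05. The median log2 difference was −0.14 over the 9 regions and −0.001 over all, whose SD was 0.50. On normalised heights both IL-4 libraries lay above both control libraries in 0 of the 9 regions (19.2% of all regions), and below them in 3 (18.6% of all regions), which were Flt3 +20.5 kb, Flt3 +37.2 kb and Csf2rb −5.0 kb. Regions seen with IL-4 alone made up 2 of the 38 (2.53% of all regions) and control-only regions 3 of the 38 (4.33% of all regions). No test was made of these counts, whose total of 5 became 8 to 16 when a library was left out and a single peak sufficed for its group (8 without control 1 or control 2, 16 without IL-4 1 and 9 without IL-4 2). The share of all regions was not computed with a library left out.

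Over the 4 libraries, the mean profile of the 3 Csf1r regions, in normalised log2 heights centred on their mean (−0.04, −0.09, 0.09 and 0.04), was nearest to those of Sh3bp4 (Euclidean distance 0.021) and Gm13498 (0.028) among 2955 genes with at least 3 regions seen in every library. In all, 397 genes lay within 0.2 of it. The Flt3 profile (0.65, 0.01, −0.24 and −0.42) was nearest to those of Laptm5 (0.081) and Pdzk1ip1 (0.104), and 5 genes lay within 0.2. These are descriptions over 4 points with no test.

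The wider growth factor system was then examined in 3 lists, none of which had a called region. The list of other ligands and receptors, with Kitl (the KIT ligand), Flt3l, Csf2ra and Pdgfrb among its 13 genes, had 51 regions. Of these, 23 were shared by all libraries, 1 was IL-4-only (1.96%, all regions 2.53%) and 3 were control-only (5.88%, all regions 4.33%). The median log2 difference of the shared regions was 0.11, with 14 of 23 above 0 and a lowest limma adjusted p of 0.495. That p belonged to the −70.3 kb region of Kitl, with heights of 10.96 and 12.00 in control and 17.74 and 18.57 in IL-4 libraries (0.88 ± 0.36, SE, n = 2 per group). This region was thus higher in both IL-4 libraries, and it was the only one of the 23 (4.35%, all regions 8.28%) at an unadjusted limma p under 0.05. The 9 shared regions of Kitl went in both directions, from −0.31 at +144.6 kb to 0.88 at −70.3 kb. Of its other regions 1 was IL-4-only and 2 were control-only. Il3ra, the IL-3 receptor alpha chain, had promoter heights of 23.30 and 17.10 in control and 14.50 and 15.27 in IL-4 libraries at −761 bp (−0.23 ± 0.32, SE, n = 2 per group, adjusted p = 0.908). Its second promoter region, at −281 bp, had heights of 21.04 and 18.25 in control and 20.65 and 17.35 in IL-4 libraries (0.14 ± 0.29, SE, n = 2 per group, adjusted p = 0.940). The promoter of Flt3l, the ligand of FLT3, had heights of 12.60 and 11.38 in control and 7.96 and 6.56 in IL-4 libraries, with an adjusted p of 0.852.

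The list of receptor signalling genes (16 genes, 154 regions) had 63 shared regions with a median log2 difference of −0.07, 8 of them (12.7%, all regions 8.28%) at an unadjusted p under 0.05 and none called. Among these 8, regions of Pik3r1 (1.204 at −326.1 kb, 1.135 at −150.2 kb), Fyn (1.314 at +81.5 kb) and Gab2 (1.209 at +90.7 kb, 1.031 at +1.3 kb) were higher with IL-4. Those of Tyrobp, Inpp5d and Jak2 (−10.1 kb), described below, were lower. Jak2, the kinase that serves CSF2RB, had an IL-4-only region at −12.1 kb with heights of 20.71 and 12.90, and a second at +2.1 kb with 6.10 and 3.95. In contrast, its −10.1 kb region had heights of 28.40 and 26.14 in control and 24.64 and 10.44 in IL-4 libraries (−0.58 ± 0.29, SE, n = 2 per group, adjusted p = 0.603). The list held 8 IL-4-only regions (5.19%, all regions 2.53%) and 9 control-only regions (5.84%, all regions 4.33%). Gab2, an adaptor recruited to activated receptors, held 3 of the IL-4-only and 2 of the control-only regions, and Fyn, a Src-family kinase, held 2. Tyrobp (DAP12), an adaptor through which CSF1R signals in macrophages, had 3 promoter regions. The one at −896 bp had heights of 18.49 and 21.37 in control and 5.42 and 10.27 in IL-4 libraries (−1.18 ± 0.41, SE, n = 2 per group, adjusted p = 0.374). The others did not have a peak in every library. In Inpp5d, the inositol phosphatase SHIP1 that limits signalling by these receptors, the +17.4 kb region had heights of 15.18 and 21.07 in control and 7.36 and 6.96 in IL-4 libraries (−1.09 ± 0.42, SE, n = 2 per group, adjusted p = 0.434). The lowest adjusted p of the list was 0.236, at a region −326 kb from Pik3r1 that was higher in both IL-4 libraries.

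The list of transcription factors known to act on these receptor genes (10 genes, 89 regions) had 38 shared regions with a median log2 difference of −0.06. It had 3 IL-4-only and 3 control-only regions (3.37% each, all regions 2.53% and 4.33%). Of the 38, 3 (7.89%, all regions 8.28%) had an unadjusted limma p under 0.05, and the lowest adjusted p was 0.411. That p belonged to the −54.3 kb region of Egr2, with heights of 11.16 and 3.04 in control and 18.03 and 9.20 in IL-4 libraries. A weak promoter region of Cebpa at −701 bp was seen with IL-4 alone (4.02 and 5.46), as was the −10.9 kb region of Irf8 (6.62 and 5.95). The Cebpa promoter region at −95 bp had a peak in every library. Its heights were 17.48 and 16.35 in control and 17.81 and 12.93 in IL-4 libraries (0.05 ± 0.33, SE, n = 2 per group, limma adjusted p = 0.985). Spi1, which encodes PU.1 and is listed under its older symbol Sfpi1, had a control-only region at −12.4 kb (4.27 and 3.78). Runx1 had 2 control-only regions in its introns, beside an intronic region at +38.9 kb with heights of 7.96 and 8.63 in control and 16.53 and 13.61 in IL-4 libraries (1.10 ± 0.42, SE, n = 2 per group, adjusted p = 0.432).

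**Figure D4:**
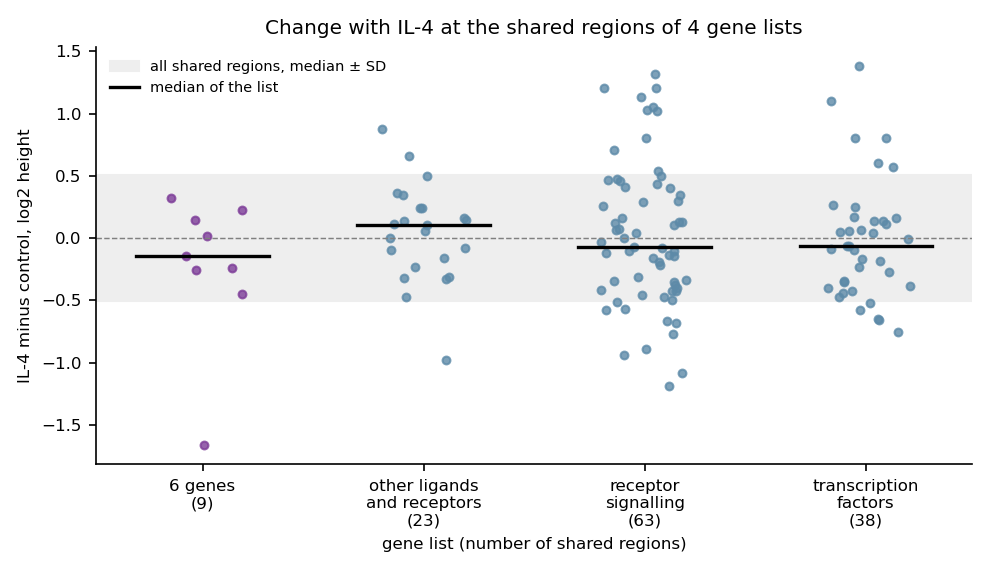
Log2 differences in normalised height, IL-4 minus control (vertical axis), for regions seen in all 4 libraries that belong to the 6 genes (9 regions, purple) and of 3 lists of related genes (23, 63 and 38 regions, blue). Black lines are list medians (−0.14, 0.11, −0.07 and −0.06), and the grey band is the median ± SD of all 25442 regions. Most points lie within the band, and the lowest point in the plot is Flt3 +20.5 kb.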

How the data were processed

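ATAC-seq was carried out on 2 control and 2 IL-4-stimulated BMDM samples. The authors aligned reads to mm10 with BWA, called peaks in each library separately with MACS2, removed blacklisted regions and annotated peaks with HOMER against RefSeq transcripts. The submitters' processing notes name BWA 0.7.10, SAMtools 0.1.19, MACS2 2.0.10 and HOMER 4.2. The handling of the Tn5 offset and of duplicate and mitochondrial reads is not given in the sources used here. The deposited peak scores, made by the authors with MACS2, were taken as −log10 q-values, although no label states their unit, since the lowest was 1.3, near −log10 of 0.05. The authors name a q-value limit of 0.01, a score of 2, and 133 to 603 peaks per library lay under it, so the reading is uncertain. A height is therefore a detection score and not a count of insertions, and it depends on depth, which is unknown.

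Peaks of chromosomes 1 to 19 and of X and Y were joined into regions at an overlap of at least 1 bp. Each region took the highest score of each library and the gene of its highest peak. For the 25442 regions with a peak in every library, log2 heights were quantile-normalised and fitted with limma 3.58.1 in R 4.3.3 (eBayes with a trend, Benjamini-Hochberg adjustment over all 25442, threshold 0.05). Peaks found in one group only were counted without a test. DiffBind, used by the authors on reads, could not be run on scores. Motifs were searched in windows of 300 bp of GRCm38.p6 (RefSeq, the mm10 assembly) with pysam 0.24.0 and samtools 1.23.1. For all 38 regions the TSS distance in the files equalled that of the RefSeq annotation within 2 bp. Fit, merging and motif search were tested on simulated data. The change simulated for the fit was larger than any found at these genes, so that detection of changes of the observed size was not tested.

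Sequences are printed for 4 regions, and 1 further sequence is not reported here. The genes and lists were chosen with earlier results of these data known. Regions of the 6 genes to be printed with every library's value were those at promoters, those in one group only and those with peaks in every library (for each gene up to 6, highest first, and the 3 with the largest change). The other regions of these genes with single values (Csf1 −55.8, −12.6, −21.0, −17.5 and +0.5 kb, Csf2rb +8.6 kb, Csf3r −22.7 kb and Kit −109.1 kb) and the regions of related genes were picked after their values were seen.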

Additional observations from a re-analysis of the deposited data

How the results depend on the processing

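No region of the 6 genes was called by limma under the 12 alternatives tried (no trend, median scaling, no normalisation, peaks scoring at least 2, peaks above the pooled median, peaks within 500 bp merged, the gene of any peak, the replicate block and each library left out). The lowest adjusted p ranged from 0.236 to 0.909, and 4 to 17 regions were testable. Without IL-4 replicate 2, where 17 were tested, Csf1 −12.6 kb joined Flt3 +20.5 kb at an unadjusted p under 0.05 (−1.31, limma adjusted p = 0.811). Without normalisation the median over all shared regions was −0.21, and the median of the 9 regions moved from −0.14 to −0.31. It was 0.10 over the 4 regions left when only peaks higher than the pooled median were used. With a library left out, the median over the 9 to 17 regions then testable ranged from −0.25 to −0.027, so that the set of regions differed too. A library left out leaves a lone sample, which is assumed to vary like the other group. Flt3 +20.5 kb kept its direction in every setting in which it was tested, from −1.91 to −1.48, with adjusted p from 0.236 to 0.799.

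Some regions near 0 turned in sign, none of them called. Csf1r +15.1 kb became −0.002 without normalisation, Flt3 +11.2 kb −0.064, and Csf3r −5.5 kb −0.24, and the last was −0.001 with median scaling. With each library left out in turn, the range was −0.001 to 0.65 for Csf1r −6.4 kb, −0.33 to 0.05 for Csf1r +3.1 kb, −0.027 to 0.46 for Csf1r +15.1 kb, −0.43 to 0.46 for Csf3r −5.5 kb and −0.61 to 0.88 for Flt3 +11.2 kb.

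The 5 one-group regions depended on weak peaks. With peaks above the pooled median height, none of the 5 was left in one group only, and 1 other region, Flt3 +20.5 kb, became control-only because its IL-4 peaks were below that height. In all, 20 regions were then found instead of 38. With a peak in 1 library of the other group tolerated, 17 regions (4 for IL-4 and 13 for control) were counted. With a library left out, so that 1 peak sufficed for its group, there were 8 to 16 (16 without IL-4 replicate 1, 8 without either control replicate and 9 without IL-4 replicate 2). For neither rule was the share of all regions computed, so that the lean to control cannot be judged from these counts. IL-4 2 was the missing library in 43.6% of all regions seen in 3 libraries.

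Whether equal replicate numbers mark paired libraries is not given in the sources used here. The difference of the control libraries correlated with that of the IL-4 libraries at r = 0.0068 over the shared regions. This cannot decide the question, since a shared source need not show in these scores. With the replicate block in the fit, 0 of the 9 regions were called, the lowest adjusted p was 0.236 and the median stayed at −0.14, while the calls over all regions rose from 4 higher and 2 lower to 11 higher and 3 lower.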
